A study of Mus musculus with 5 samples.

Results

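Cadherins and protocadherins, the calcium-dependent cell adhesion proteins of the cadherin superfamily, were followed in mouse cells converted from fibroblasts to a neural progenitor state and in the cells they were compared with. The members were all probes, other than controls, whose gene name in the array files was Cdh followed by a number or began with Pcdh. They comprised 90 of 55681 probes and 71 of 36163 gene names: 24 numbered cadherins, 35 clustered protocadherins of the alpha, beta and gamma clusters, and 12 other protocadherins. RNA came from 4 kinds of primary mouse cell: mouse embryonic fibroblasts (MEF), chemical-induced neural progenitor cells (ciNPC) at passage 5 (p5) and at passage 13 (p13), and brain-derived neural progenitor cells (NPC), which served as the control progenitors. Each sample was hybridised to 1 single-colour array. There was 1 MEF array, 1 ciNPC p5 array, 2 ciNPC p13 arrays (replicates 1 and 2) and 1 NPC array. The labels give no strain, age or sex, do not name the chemicals, and do not state that the 2 p13 arrays were separate cultures. The p-values below therefore rest on a spread between samples that may be technical. In the comparisons with MEF and NPC, p5 and p13 are joined, so that spread also holds any difference between passages.

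Cadherins join neighbouring cells through extracellular repeats that bind the like molecule on the other cell, and through a tail that binds catenins and so the actin cytoskeleton. Type I cadherins (E-, N-, P- and R-cadherin) make strong junctions; type II cadherins mark subdivisions of the brain and sort neurons and progenitors. Clustered protocadherins are made from tandem variable exons with a promoter each, and their combinations give single neurons distinct surface identities. The non-clustered delta-protocadherins act in axon growth, synapse formation and cell movement. Exchange of one cadherin for another is a known feature of tissue formation, and N-cadherin is made both by fibroblasts and by neural progenitors.

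A level is log2 of the probe's intensity minus the 75th percentile of its array, so a level of 0 is as bright as that percentile and 1 unit is a doubling. Levels of different probes are not compared, since probes differ in response. A gene is represented by its brightest probe unless another is named. A probe counts as detected where the scanner software marked it well above background; the lowest such signal lay between -4.35 and -2.79 on the 5 arrays and was used as the floor. Where one side was not detected, the fold is given as a lower bound ("at least"), with the higher of the floor and the measured value on the dim side.

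MEF and NPC were hybridised on slide 1 and scanned in scan 1, the 3 ciNPC arrays on slide 2 in scan 2, so a difference of ciNPC from either of the others cannot be told apart from a difference between slides. NPC against MEF, and p13 against p5, lie within 1 slide. The share of spots well above background ran from 47.9% to 57.6%, and the spike-in controls had a slope of 0.803 on ciNPC p13 replicate 2 against 0.915 to 0.987 elsewhere. The labelled cell types were checked with 8 fibroblast and 8 neural progenitor markers. The summed level of the fibroblast markers (the sum of the linear levels, in units of each array's 75th percentile) was 2017 on MEF, 252 to 344 on the ciNPC arrays and 8.18 on NPC. For the progenitor markers it was 17.5 on MEF, 457 to 578 on ciNPC and 692 on NPC. On the ciNPC arrays Col1a1, Col1a2 and Fn1 were still detected beside Sox2, Olig1 and Fabp7. On NPC, Col1a1 and Twist2 were not detected. The other 6 of the 8 fibroblast markers were detected there, among them Fn1 (level 2.33) and Col1a2 (-3.74). In RNA from bulk samples, fewer cells of a type and less RNA per cell cannot be told apart.

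Of the 71 genes, 50 were detected on all arrays of 1 or more of the 4 groups and entered the tests: 15 numbered cadherins, 23 clustered and 12 other protocadherins. Another 20 were not detected on any of the 5 arrays, and Pcdhb13 was detected on 1 p13 array alone. E-cadherin (Cdh1, the epithelial cadherin) and VE-cadherin (Cdh5, the endothelial one) were among the undetected, with highest levels of -3.88 and -4.91, as were Cdh7, Cdh9, Cdh17, Cdh18, Cdh23, Cdh24 and Cdh29. The 3 ciNPC arrays were set against the lone MEF and lone NPC array in limma fits over 25077 genes, in which each lone array is assumed to vary like the ciNPC arrays. Where a lone array was near the floor, the SE and p therefore do not measure the spread of that dim value. A gene counts as higher or lower at a Benjamini-Hochberg adjusted p under 0.05 over all 25077 genes and a difference of at least 2-fold.

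Against MEF, 10 of the 50 tested genes were higher in ciNPC, where 12.7% of all genes tested were, and 4 were lower, where 12.7% of all genes were. The higher ones were Cdh4, Cdh6, Cdh13, Cdh19, Cdh20, Cdh22, Pcdh10, Pcdh12, Pcdh17 and Pcdhb18, and the lower ones Cdh3, Cdh11, Pcdh11x and Pcdh19. All 8 neural progenitor markers were higher in ciNPC than in MEF as well, and 6 of 8 fibroblast markers were lower; their part in the members' values was not tested. The median difference was 0.03 over the 50 and -0.13 over all genes. Among the 29 members detected on all 5 arrays, 8 were higher and 2 lower, beside 15.1% and 15.7% of all genes so detected. By class, the calls were 6 higher and 2 lower of 15 numbered cadherins, 1 higher and 0 lower of 23 clustered protocadherins (2 and 0 at an unadjusted p under 0.05 in limma), and 3 higher and 2 lower of 12 other protocadherins. The difference between classes was not tested.

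The sizes of these differences depended on the background correction. With normexp, which adds an offset of 50 to every signal, the log2 difference from MEF was 5.51 for Cdh4, 5.21 for Cdh22, 2.61 for Cdh20, 1.60 for Cdh19, 2.62 for Pcdh10 and 1.54 for Pcdh17. These remained calls, but each is over 1.5 times smaller as a fold than the value given below. The bounds given as "at least" belong to the signal without that offset.

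**Figure D1:**
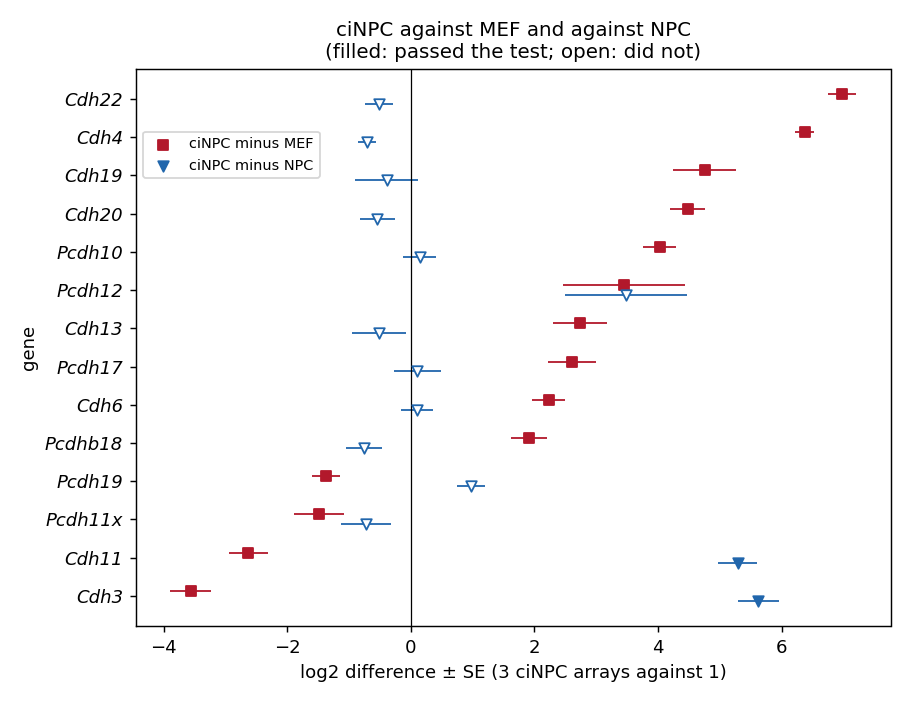
Log2 difference of the 3 ciNPC arrays from the MEF array (squares) and from the NPC array (triangles) for the 14 genes that passed the test in either comparison, with the standard error of the limma fit as bars; filled symbols passed the test. Cdh22 and Cdh4 lie farthest to the right against MEF at 6.98 and 6.37, while Cdh3 and Cdh11 are below 0 against MEF and above 0 against NPC. Cdh3, Cdh11 and Pcdh12 were not detected on NPC, nor Cdh19 and Pcdh12 on MEF, so those plotted differences are fitted values and not bounds.

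The type I cadherins took 3 different courses. N-cadherin (Cdh2), the main cadherin of neural tube and mesenchyme, was bright on all 5 arrays. Its level was 4.26 on MEF, 4.29 on p5, 4.41 and 4.10 on the p13 arrays and 4.46 on NPC. All 5 arrays lay within the range from 4.10 to 4.46, and the ciNPC difference was 0.01 against MEF (SE 0.151, adjusted p = 0.982 in limma) and -0.19 against NPC (adjusted p = 0.586). A second Cdh2 probe read 3.75 on MEF, 3.85, 4.04 and 3.77 on the ciNPC arrays and 4.08 on NPC.

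R-cadherin (Cdh4), a cadherin of the developing retina and forebrain, went the other way from P-cadherin (Cdh3), known from placenta and basal epithelia. The Cdh4 level was -2.55 on MEF, 3.88 on p5, 3.90 and 3.69 on p13 and 4.53 on NPC. MEF stood far below the other 4 arrays, and the ciNPC arrays lay close together, at 3.83 ± 0.119 (SD, n = 3). ciNPC were 82.8-fold higher than MEF (log2 difference 6.37, SE 0.147, adjusted p = 2.14e-06, limma). NPC was higher again by 1.63-fold (log2 difference of ciNPC from NPC -0.71, adjusted p = 0.0594), which did not pass the test. Cdh4 was the only member with 3 probes that all passed the test against MEF, and their sequences show which stretches of the transcript were read. The first 30 of each probe's 60 bases are given 5′ to 3′ as in the array files, with the mm9 position the files state for the probe; all 3 lie on the plus strand, and what the annotation of that build holds there was not examined.

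Cdh4 probe 1 (chr2:179630828-179630887): ggcacagccctaacttgaatttcttaccac
Cdh4 probe 2 (chr2:179633818-179633877): ttttttgtaatcgtcaacagcacaaatatt
Cdh4 probe 3 (chr2:179581965-179582024): agaatcctattgacctgtacatctacgtca

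The second probe, close to the first, was not detected on MEF (-5.95) and read 2.92, 3.18 and 3.07 on the ciNPC arrays and 3.60 on NPC. The third, farther 5′, was not detected on MEF (-6.43) and read -1.92, -1.39 and -1.24 on ciNPC and -1.26 on NPC. All 3 probes thus put MEF lowest. Fitted on their own, their log2 differences of ciNPC from MEF were 6.37, 9.01 and 4.91, so the size depended on the probe.

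P-cadherin showed the reverse. Its level was 2.58 on MEF, -0.81 on p5, -1.26 and -0.86 on p13, and on NPC it was not detected (-6.60). The ciNPC arrays, at -0.98 ± 0.246 (SD, n = 3), lay between the other cells without overlap. ciNPC were 11.8-fold lower than MEF (log2 difference -3.56, SE 0.332, adjusted p = 0.00035, limma) and kept 8.56% of the MEF signal, but were at least 10.4-fold higher than NPC (adjusted p = 0.00016; log2 difference 2.64 with normexp). Of 6 epithelial markers 5 were tested; 2 of them, Krt8 and Krt18, were higher in ciNPC than in NPC, and none was called against MEF. Their list's summed level was 2.71 on MEF, 2.77 to 3.63 on ciNPC and 0.394 on NPC, and their part in the Cdh3 values was not tested. M-cadherin (Cdh15), the cadherin of muscle precursors, read -1.95 on MEF, -1.95 on p5, -2.24 and -1.62 on p13 and -3.11 on NPC. Neither difference passed the test (0.02 against MEF, adjusted p = 0.982; 1.17 against NPC, adjusted p = 0.278, limma). Of 5 muscle markers, 3 were tested and all 3 (Myog, Acta1, Des) were higher in ciNPC than in NPC. Their list's summed level was 16.4 on MEF, 2.21 to 3.45 on ciNPC and 0.0766 on NPC, with Myod1 and Myf5 not detected on any array. Most of the MEF sum came from Acta1 (level 3.96). Myog ran the other way: undetected on MEF, it exceeded that array by at least 6.18-fold in ciNPC (limma, adjusted p = 0.0032).

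**Figure D2:**
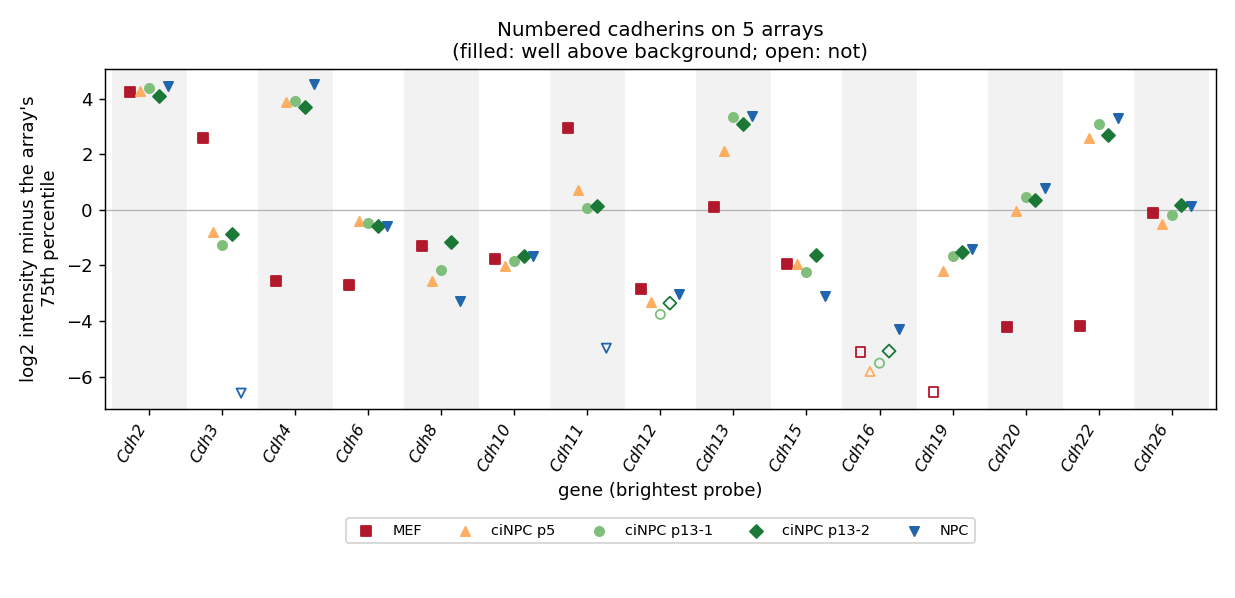
Level (log2 intensity minus the array's 75th percentile) of the 15 tested numbered cadherins on each of the 5 arrays; open symbols were not well above background. Cdh2 stays between 4.10 and 4.46, Cdh4 and Cdh22 are low on MEF alone, and Cdh3 and Cdh11 fall from MEF through ciNPC to NPC.

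Among the type II cadherins, 4 of 8 tested were higher in ciNPC than in MEF (Cdh6, Cdh19, Cdh20, Cdh22) and 1, Cdh11, was lower, beside 12.7% of all genes each way. Cdh22, first described in pituitary and brain, had the largest difference from MEF among the brightest probes; with normexp Cdh4 had. Its level was -4.19 on MEF, 2.57 on p5, 3.09 and 2.69 on p13 and 3.31 on NPC. MEF was barely above background, whereas the other 4 arrays lay within 1 unit of each other. ciNPC exceeded MEF by 126-fold (log2 difference 6.98, SE 0.227, adjusted p = 7.82e-06, limma) and differed from NPC by -0.52 (SE 0.227, adjusted p = 0.349). Cdh20, a neural and neural crest cadherin, followed with -4.23 on MEF, -0.05 on p5, 0.45 and 0.34 on p13 and 0.79 on NPC. Its ciNPC level was 22.3-fold above MEF (log2 difference 4.48, SE 0.283, adjusted p = 7.99e-05) and -0.54 from NPC (adjusted p = 0.426). For both genes the NPC array was the highest of the 5 and p5 the lowest of the ciNPC arrays. MEF lay near the floor of its array (-4.29) for both, and the SE does not measure the spread at that level.

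Cdh19, a cadherin known from Schwann cell precursors, was not detected on MEF (-6.56) and read -2.21 on p5, -1.67 and -1.51 on p13 and -1.41 on NPC. ciNPC were at least 5.64-fold higher than MEF (fitted log2 difference 4.76, adjusted p = 0.000619, limma) and -0.39 from NPC (SE 0.512, adjusted p = 0.742). Cdh6, expressed in the embryonic forebrain and kidney, was -2.71 on MEF and -0.39, -0.47, -0.59 and -0.58 on p5, the p13 arrays and NPC. The 4 progenitor arrays lay within 0.2 of each other for this gene. Its ciNPC level was 4.69-fold above MEF (log2 difference 2.23, SE 0.264, adjusted p = 0.000894) and 0.10 from NPC (adjusted p = 0.881).

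Cdh11 (OB-cadherin), a mesenchymal and osteoblast cadherin, moved opposite to these 4. Its level was 2.93 on MEF, 0.72 on p5, 0.06 and 0.14 on p13, and it was not detected on NPC (-4.98). ciNPC were 6.18-fold below MEF (log2 difference -2.63, SE 0.311, adjusted p = 0.000889, limma), keeping 16.5% of its signal, and at least 25.2-fold above NPC (adjusted p = 0.000154; log2 difference 2.84 with normexp). A second probe fell in the same order, from 2.64 on MEF to -1.07, -1.16 and -0.91 on ciNPC and an undetected -4.40 on NPC, and passed both tests when every probe was fitted on its own. The first 30 bases of both probes, which lie on the minus strand, are:

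Cdh11 probe 1 (chr8:105157473-105157532): tattttagtatacatacaaatatcagtatt
Cdh11 probe 2 (chr8:105156895-105156927): atagaactgtttgaaatcacaacagactga

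Cdh3 and Cdh11 were the only 2 members called higher in ciNPC than in NPC. The fibroblast markers moved with them: all 8 were higher in ciNPC than in NPC and 6 of 8 were lower in ciNPC than in MEF. Their part in the Cdh3 and Cdh11 values was not tested. Of the other type II genes, Cdh10 was level (-1.77 on MEF, -2.03, -1.86 and -1.67 on ciNPC, -1.67 on NPC) and Cdh8 spread from -3.28 on NPC to -1.17 on p13 replicate 2 without passing a test. Cdh12 was detected on 3 of 5 arrays and close to background on each.

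Cdh13 (T-cadherin), which lacks a cytoplasmic tail and is anchored by a lipid, was the member that differed between passages. Its level was 0.11 on MEF, 2.11 on p5, 3.35 and 3.10 on p13 and 3.37 on NPC. Both p13 arrays lay near NPC, and p5 lay between MEF and the rest. ciNPC as a whole were 6.67-fold higher than MEF (log2 difference 2.74, SE 0.436, adjusted p = 0.00306, limma), a call that was lost without limma's intensity trend. Against NPC the difference was -0.52 (adjusted p = 0.603). From p5 to p13 the level rose by 1.12 on the log2 scale, or 2.17-fold (SE 0.118, adjusted p = 0.000867). The p13 arrays stood 1.24 and 1.00 above p5. In this comparison, which rests on 1 residual degree of freedom, 1 member was higher and 0 were lower of the 50 tested, where 0.447% and 0.163% of all genes were; at an unadjusted p under 0.05 in limma, 8 were higher and 4 lower. The Cdh13 call was not kept under quantile normalisation, in the deposited value table or without the intensity trend, although in those settings its size was 1.12 or above.

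Promoter sequence was looked up for called genes in RefSeq's table for GRCm38.p6. Windows were taken for 6 called members (Cdh6, Cdh20, Cdh22, Pcdh10, Pcdh17, Pcdh19). The promoter table held no entry for Cdh3, Cdh4, Cdh11, Cdh13, Cdh19 and Pcdh11x, and no window was taken for Pcdh12 and Pcdhb18. The 250 bases before the annotated start are shown for 4 of the 6. These are the 3 of the 6 with the largest rise over MEF and the 1 of the 6 that was lower. They are given 5′ to 3′ on the gene's strand, with CpG dinucleotides in capitals.

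Cdh22 (chr2:165234738-165234987, minus strand): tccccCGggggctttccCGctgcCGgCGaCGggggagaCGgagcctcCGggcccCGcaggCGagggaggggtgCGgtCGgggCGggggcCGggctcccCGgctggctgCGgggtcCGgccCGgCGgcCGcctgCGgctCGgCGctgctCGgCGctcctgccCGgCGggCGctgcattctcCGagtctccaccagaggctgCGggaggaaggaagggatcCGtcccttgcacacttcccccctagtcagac
Cdh20 (chr1:104768270-104768519, plus strand): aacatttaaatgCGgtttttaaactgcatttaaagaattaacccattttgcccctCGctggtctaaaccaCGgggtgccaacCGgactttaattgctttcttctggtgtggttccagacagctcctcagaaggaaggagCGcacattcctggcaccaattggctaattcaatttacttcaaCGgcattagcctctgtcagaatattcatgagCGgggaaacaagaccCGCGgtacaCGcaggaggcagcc
Pcdh10 (chr3:45378148-45378397, plus strand): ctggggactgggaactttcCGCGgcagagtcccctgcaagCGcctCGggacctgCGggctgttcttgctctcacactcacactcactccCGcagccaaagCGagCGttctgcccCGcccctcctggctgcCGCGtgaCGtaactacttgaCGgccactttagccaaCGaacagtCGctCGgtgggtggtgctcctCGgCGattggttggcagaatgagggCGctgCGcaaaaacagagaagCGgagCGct
Pcdh19 (chrX:133688994-133689243, minus strand): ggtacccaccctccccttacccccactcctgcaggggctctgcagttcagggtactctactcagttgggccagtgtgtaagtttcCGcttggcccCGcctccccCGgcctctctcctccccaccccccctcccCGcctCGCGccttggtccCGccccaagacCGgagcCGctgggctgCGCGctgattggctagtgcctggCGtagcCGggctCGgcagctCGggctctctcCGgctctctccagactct

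The Cdh22 stretch held 30 CpG dinucleotides at a GC content of 77.6%, Pcdh10 held 22 at 63.2%, Pcdh19 held 16 at 69.2% and Cdh20 held 10 at 47.6%. Pcdh17 (21) and Cdh6 (6) completed the 6, beside a median of 6 and a median GC content of 52.4% over 32851 promoter windows of the same length. The windows of members not called against MEF held from 0 (Cdh26) to 23 (Pcdh18) CpG dinucleotides. Whether called and uncalled members differ in this was not tested. The E-box CAGGTG, read on both strands (CACCTG on the other), is a motif bound by Snai and Zeb repressors and was in none of the 6 windows, beside 17.2% of all windows. That count describes these windows alone, and neither gene called against NPC (Cdh3, Cdh11) is among them.

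Of the non-clustered protocadherins, 5 passed the test against MEF. Pcdh10 (OL-protocadherin), a delta-2 protocadherin of growing axons and neural progenitors, read -3.90 on MEF, 0.30 on p5, 0.15 and -0.06 on p13 and -0.01 on NPC. MEF stood about 4 units below the others, which lay within 0.4 of each other. ciNPC were 16.3-fold above MEF (log2 difference 4.03, SE 0.265, adjusted p = 9.13e-05, limma) and 0.14 from NPC (adjusted p = 0.821). Its second probe gave -4.09 on MEF, -1.50, -1.24 and -1.84 on ciNPC and -1.24 on NPC. Pcdh17, another delta-2 member, with known roles at synapses and in axon bundling, read -3.23 on MEF, -0.31 on p5, -0.44 and -1.11 on p13 and -0.73 on NPC. It was 6.10-fold higher in ciNPC than in MEF (log2 difference 2.61, SE 0.386, adjusted p = 0.00224) and 0.11 from NPC (adjusted p = 0.914).

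Pcdh19, the X-linked delta-2 protocadherin mutated in a form of epilepsy, and Pcdh18 ran in the opposite order. Pcdh19 was 3.90 on MEF, 2.85 on p5, 2.50 and 2.24 on p13 and 1.56 on NPC. The ciNPC arrays lay between MEF and NPC and did not overlap either. ciNPC were 2.59-fold lower than MEF (log2 difference -1.37, SE 0.231, adjusted p = 0.00382, limma; lost without the intensity trend) and 0.97 above NPC (adjusted p = 0.0977). Pcdh18 showed the same order at smaller steps: 2.43 on MEF, 2.03 on p5, 1.62 and 1.42 on p13 and 0.61 on NPC. Its ciNPC differences were -0.73 against MEF (SE 0.242, adjusted p = 0.0512) and 1.09 against NPC (SE 0.242, adjusted p = 0.0778), neither past the threshold; against NPC it passed under 4 of the alternative settings. Between passages, Pcdh18 differed by -0.50 (adjusted p = 0.0426, limma) and Pcdh19 by -0.48 (adjusted p = 0.0405), both under 2-fold.

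Pcdh11x is an X-linked delta-1 protocadherin of the brain. By brightest probes, it was the one called member whose 3 ciNPC arrays all lay below both MEF and NPC. That probe read 0.23 on MEF, -1.82 on p5, -1.06 and -0.88 on p13 and -0.53 on NPC. The difference was -1.48 against MEF (SE 0.403, adjusted p = 0.0261, limma) and -0.72 against NPC (adjusted p = 0.451). The call against MEF was lost when the probes of a gene were averaged and without the intensity trend. Its second probe was detected on MEF alone (-4.11). A further probe, described as Pcdh11x but filed under another name, was not detected on p5 or p13 replicate 2. It read -2.94 on MEF, -4.05 on p5, -2.88 and -2.94 on p13 and -2.90 on NPC. Pcdh7 (delta-1) fell from -0.91 on MEF through -1.43, -1.97 and -1.79 on ciNPC to -3.48 on NPC. Its values did not pass either test (-0.83 against MEF, adjusted p = 0.145; 1.75 against NPC, adjusted p = 0.0782); against NPC it passed with normexp and with each ciNPC array left out in turn. Its other probes disagreed: one read -0.22 on p13 replicate 1 against -2.71 on replicate 2, and the third lay between -3.28 and -2.79 throughout.

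Pcdh12, known as an endothelial protocadherin, was close to background. It was not detected on MEF (-6.53), NPC (-6.58) or p13 replicate 2 (-3.43) and was detected on p5 (-3.27) and p13 replicate 1 (-2.57). The test called it higher in ciNPC than in MEF (fitted log2 difference 3.44, adjusted p = 0.0315, limma; at least 2.31-fold), but not under quantile normalisation, normexp background correction, the deposited value table or without p13 replicate 1. The endothelial markers had a summed level of 16.8 on MEF, 4.39 to 6.99 on ciNPC and 6.48 on NPC. Most of it came from Kdr (level 4.04 on MEF and 2.64 on NPC). Pecam1 was detected on MEF (-1.85), on the p13 arrays (-2.94 and -1.76) and on NPC (-2.20), but not on p5. Tek and Tie1 were not detected on any array, and Cldn5 was detected on MEF alone. Pcdh8, a protocadherin of somites and active synapses, was not detected on MEF (-6.56) or p5 (-5.76) and read -2.68 and -2.63 on p13 and -3.26 on NPC. Its difference between passages was at least 1.91-fold and did not pass the test (adjusted p = 0.183, limma); against MEF it passed without the p5 array, not with it (adjusted p = 0.159). Pcdh20 was detected on MEF (-3.49), p5 (-3.03) and p13 replicate 2 (-1.94) but not on p13 replicate 1 (-3.59) or NPC (-6.61), and passed no test with all arrays.

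The remaining non-clustered genes were flat or dim. Pcdh1 read 0.26 on MEF, -0.22, -0.06 and -0.35 on ciNPC and -0.09 on NPC. Pcdh9 read -3.04 on MEF, -2.29, -2.21 and -2.12 on ciNPC and -1.82 on NPC, a difference from MEF of 0.84 that did not pass the test (adjusted p = 0.152, limma). Of the 6 probes for Pcdh15, the cadherin of hair cell tip links, 3 were not detected on any array.

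**Figure D3:**
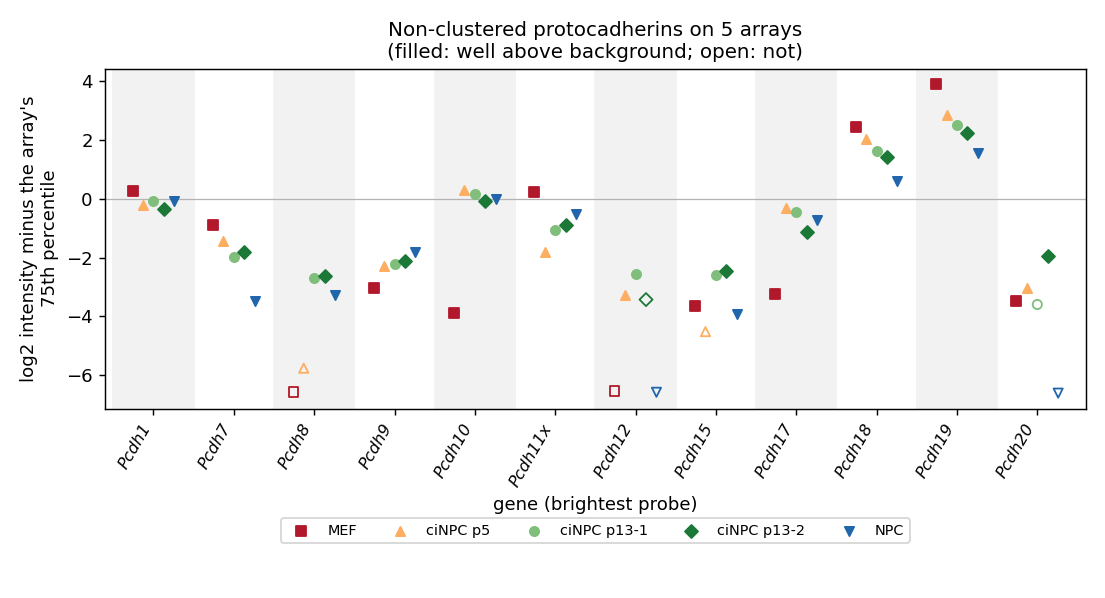
Level (log2 intensity minus the array's 75th percentile) of the 12 non-clustered protocadherins on each of the 5 arrays; open symbols were not well above background. Pcdh10 and Pcdh17 are low on MEF alone, and Pcdh18 and Pcdh19 descend from MEF through ciNPC to NPC.

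The clustered protocadherins were represented by 38 probes for 35 genes: 7 alpha, 22 beta and 6 gamma. Only Pcdhb18 passed the test. It read -3.04 on MEF, -1.16 on p5, -1.11 and -1.13 on p13 and -0.38 on NPC. The 3 ciNPC arrays were nearly identical, at -1.13 ± 0.0281 (SD, n = 3), between MEF and NPC. ciNPC were 3.75-fold higher than MEF (log2 difference 1.91, SE 0.292, adjusted p = 0.00259, limma) and -0.75 from NPC (SE 0.292, adjusted p = 0.300). Pcdhb21 had the same order, 0.02 on MEF, 0.39 on p5, 0.96 and 0.92 on p13 and 1.41 on NPC, but its difference of 0.73 from MEF did not pass (adjusted p = 0.0685). Over the other 10 clustered genes detected on all 5 arrays, the difference from MEF ran from -0.60 (Pcdhb14) to 0.73 (Pcdhb21). The 10 include Pcdhac2 and Pcdhga9, whose probes, as described below, are not taken as levels of those genes' variable exons.

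Detection differed along the beta cluster. Of Pcdhb1 to Pcdhb11, 1 of 11 (Pcdhb6) was detected on all 5 arrays and 6 were detected on none. Of Pcdhb12 to Pcdhb22, 8 of 11 were detected on all 5 and 1 (Pcdhb19) on none. This split was seen after the values were, is given without a test, and rests on 1 probe a gene. Variable exons of a cluster resemble each other. The longest stretch shared by any pair of beta probes was 12 of 60 bases (Pcdhb5 and Pcdhb13), and 11 among alpha and 7 among gamma probes; matches of a probe to the exons of other genes were not examined, so the genes' signals may not be separate.

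Outside the beta cluster most variable-exon probes were near background. Of 7 alpha genes, 4 were detected on no array, and Pcdhac2 alone was detected on all 5, at -2.38 on MEF, -1.14 on p5, -1.96 and -2.60 on p13 and -2.09 on NPC. That probe lies 3′ of a second Pcdhac2 probe, which was detected on no array. It also lies past all other alpha probes, where the annotation was not examined. It is thus not taken as the level of the Pcdhac2 variable exon. Pcdhac1 was one of the 4 undetected alpha genes. A further probe, described as Pcdhac1 but filed under another name, was detected on MEF (-3.15), p13 replicate 1 (-2.89) and NPC (-2.84) and not on the other arrays. Among gamma genes only Pcdhga9 was detected on all 5. Both of its probes lie 3′ of the probe for Pcdhgc5, past all other gamma probes, where the annotation was not examined; one was bright and level (5.82 on MEF, 5.74, 6.11 and 5.74 on ciNPC, 6.21 on NPC) and the other read 2.46 on MEF, 1.66, 1.71 and 1.67 on ciNPC and 1.57 on NPC. They are thus not taken as levels of the Pcdhga9 variable exon. The remaining 5 gamma genes were detected on 1 to 2 arrays each.

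**Figure D4:**
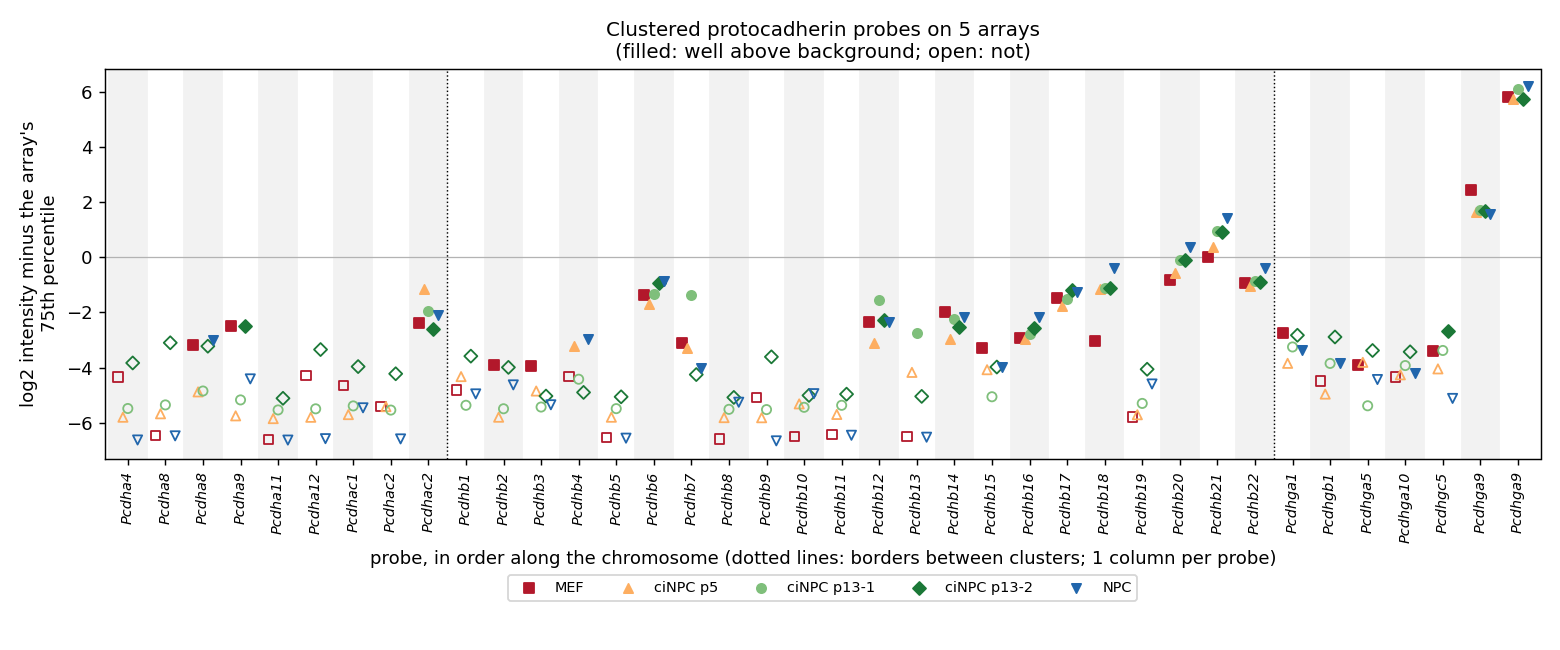
Level (log2 intensity minus the array's 75th percentile) of the 38 clustered protocadherin probes on each of the 5 arrays, in their order along the chromosome; open symbols were not well above background. Filled symbols gather in Pcdhb12 to Pcdhb22 (8 of 11 genes on all 5 arrays), and at Pcdhb18 the MEF array is lowest, at -3.04.

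Against NPC, 2 of the 50 members were higher in ciNPC (Cdh3 and Cdh11), where 3.23% of all genes were, and 0 were lower, where 0.0678% were; at an unadjusted p under 0.05 in limma, 8 members were higher and 3 lower. The median difference was -0.19 over the members and -0.13 over all genes. Leaving Pcdh12 aside, the other 9 genes that were higher in ciNPC than in MEF differed from NPC by -0.75 to 0.14, and none passed the test; a p that misses the threshold does not show equal levels. Expressed as a share of the NPC signal, ciNPC reached 59.3% for Pcdhb18, 61.4% for Cdh4, 69.5% for Cdh20, 70.5% for Cdh22, 74.2% for Cdh13 and 77.9% for Cdh19. Cdh6 (107%), Pcdh10 (111%) and Pcdh17 (111%) lay close to it. For Pcdh10 and Pcdh17 the direction was not settled. The log2 difference of Pcdh10 turned to -0.07 with the mean of its probes, and that of Pcdh17 to -0.05 without the p5 array. For Cdh6 it stayed above 0 under the alternatives, from 0.05 to 0.23, a size at which the choice of normalization still matters. The comparisons with MEF and with NPC use the same ciNPC arrays.

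Where ciNPC lay between the other cells was described for members at least 4-fold apart between NPC and MEF, which lie on 1 slide and have 1 array each, so no test was made. By that measure 9 members were higher in NPC (6.85% of all genes tested) and 4 were lower (7.88%). Among the brightest probes, the widest gaps were 181-fold for Cdh22 and 135-fold for Cdh4, higher in NPC, and at least 156-fold for Cdh11 and at least 122-fold for Cdh3, lower in NPC. With MEF set at 0 and NPC at 1 on the log2 scale, and the floor used for an undetected value, the 9 genes higher in NPC had a median position of 0.902 on p5, 0.971 on p13 replicate 1 and 0.917 on p13 replicate 2. All 1719 genes of that direction had medians of 0.835, 0.871 and 0.859. The 4 genes lower in NPC (Cdh3, Cdh11, Pcdh7, Pcdh19) had median positions of 0.377, 0.484 and 0.440, beside 0.625, 0.629 and 0.557 for all 1977 genes of their direction. For Cdh3 and Cdh11 the position is an upper bound, because NPC was at the floor. For Cdh19 it is a lower bound, because MEF was at the floor. Individually, Pcdh19 reached 0.450 on p5 and 0.598 and 0.708 on p13, Cdh3 0.489, 0.554 and 0.497, Cdh11 0.304, 0.395 and 0.383, and Pcdh7 0.205, 0.414 and 0.344. These are descriptions of 4 genes; whether they differ from other genes was not tested.

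**Figure D5:**
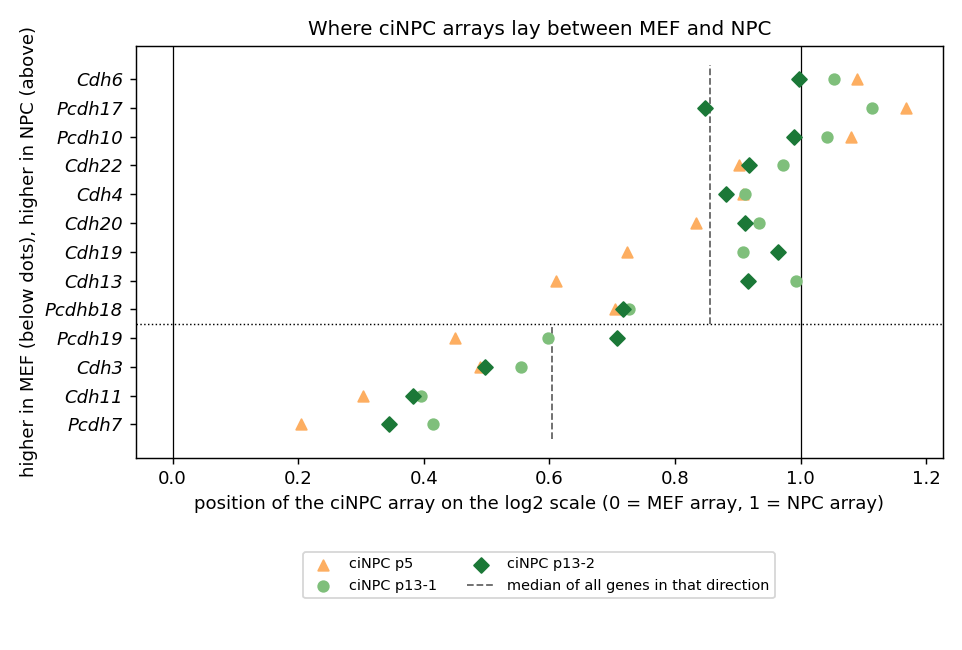
Position of each ciNPC array between the MEF array (0) and the NPC array (1) on the log2 scale, for the 13 members at least 4-fold apart between MEF and NPC; dashed lines mark the median over all genes of that direction (1719 higher in NPC, 1977 higher in MEF), averaged over the 3 ciNPC arrays. Genes higher in NPC lie between 0.611 (Cdh13 on p5) and 1.17 (Pcdh17 on p5), and the 4 higher in MEF between 0.205 and 0.708, so the ranges overlap. The positions of Cdh3 and Cdh11 are upper bounds and those of Cdh19 are lower bounds. Each gene is placed by its brightest probe, and the other probes of Pcdh7 were under 4-fold apart.

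Of 11 genes for the intracellular partners of cadherins (catenins and their relatives), 10 were tested; 1 was higher in ciNPC than in MEF and 2 were lower, beside 12.7% of all genes each way (4 and 4 at an unadjusted p under 0.05 in limma). The one that rose was Ctnnd2 (delta-catenin, the neural member of the p120-catenin family), at -2.13 on MEF, 2.43 on p5, 3.08 and 2.68 on p13 and 3.15 on NPC (log2 difference 4.86, adjusted p = 4.1e-05, limma). Vcl (vinculin; -1.40) and Ctnna2 (-1.22) were lower. Against NPC 0 of the 10 passed in limma, with 1 higher and 1 lower at an unadjusted p under 0.05. The Snai, Zeb and Twist transcription factors can repress E-cadherin. Snai1 (-2.15), Snai2 (-2.49) and Twist1 (-2.16) were lower in ciNPC than in MEF and Zeb1 (2.11) was higher. That is 3 of 6 lower and 1 of 6 higher, beside 12.7% of all genes each way. Snai1, Snai2, Twist1 and Twist2 were higher in ciNPC than in NPC (3.23% of all genes were), by 36.1-fold for Snai2 and by at least 56.6-, 11.7- and 70.4-fold for Snai1, Twist1 and Twist2. Twist2 is also one of the 8 fibroblast markers.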

How the data were processed

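The intensity values came from 5 deposited single-colour Agilent array files (60-base probes, mm9 design), extracted with Feature Extraction 10.7.1.1 per the file headers, in which the processed signal is background-subtracted but not scaled between arrays. A deposited table of log2 values, with a median of 5.65 on each array, served as an alternative; its normalization is not given in the sources used here.

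From these, log2 of the processed intensity minus the array's 75th percentile was taken, outlier spots were removed (10 spots of members), the spots of a probe averaged and the brightest probe of each file gene name kept. No member probe was saturated. Genes detected on every array of at least 1 of 4 groups were fitted with limma 3.58.1 (R 4.3.3; empirical Bayes with intensity trend): 3 cell types (2 residual degrees of freedom) for ciNPC against MEF and NPC, 4 groups (1 residual degree of freedom) for p13 against p5. The fit was also run on simulated data, in which all arrays were given the same spread and no slide effect. That run therefore cannot check the spread assumed for the lone arrays. The arrays' small number limits the precision. The members and gene lists were chosen with earlier results of these data known. Genes given in full were 20 listed by name where detected, up to 5 called genes per class, direction and comparison, and any called between passages. Alternatives covered normalization, background correction, filters, probe summaries, variance model, fold threshold and each ciNPC array left out. A block for slide could not be fitted, since slide and group coincide. Of 10 marker lists, 5 are not reported here.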

Additional observations from a re-analysis of the deposited data

Results flagged for a closer look

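Cdh13 (T-cadherin) was the only member that met both the adjusted p and the 2-fold threshold in the test of p13 against p5. Its p13 level exceeded p5 by 1.12 on the log2 scale (SE 0.118, adjusted p = 0.000867, limma, 4 groups). Both p13 arrays were higher than p5 (by 1.24 and 1.00). The single p5 array is assumed in that test to vary like the p13 arrays. Pcdh18 (-0.50) and Pcdh19 (-0.48) met the adjusted p threshold alone. The Cdh13 call was lost under quantile normalization, in the deposited value table and without the intensity trend.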

How the results depend on the processing

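No paired analysis was possible because only the p13 group holds more than 1 replicate. Of 17 calls on named members, 12 held under every alternative run, 5 were lost under at least 1, and 0 reversed; 5 of 30 uncalled differences passed under some alternative. The lower count against MEF fell from 4 to 2 with only genes detected on all 5 arrays and to 2 without the intensity trend. The higher count against NPC went from 2 to 4 when the percentile was taken over probes detected on all 5 arrays, and to 0 with only genes detected on all 5, since Cdh3 and Cdh11 are not detected on NPC. Leaving out 1 ciNPC array gave 3 to 6 (3 without p5, 4 without p13 replicate 1, 6 without p13 replicate 2, which adds Pcdh7, Pcdh18, Pcdh19 and Pcdh20); against MEF it gave 9 to 11 higher and 4 to 5 lower. The higher count between passages went from 1 to 0 under quantile normalization, in the deposited table and without the trend, and over all genes from 112 to 2, 2 and 0; the cause was not tested. Without a fold threshold the lower count there rose from 0 to 2 (Pcdh18, Pcdh19). Leaving out a p13 array there leaves no residual degrees of freedom and so no test. The number of members 4-fold or more above MEF in NPC fell from 9 to 5 with normexp background correction. The number 4-fold or more below MEF fell from 4 to 3 with normexp and with the mean over all probes of a gene. The detected-probe percentile moved the median of all genes from -0.13 to 0.03 against MEF and from -0.13 to 0.003 against NPC, so differences under about 0.2 have no settled direction. Genes near background have only bounds.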

Other observations

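Other branches of the cadherin superfamily and protocadherin partners were also measured. Of 25 further superfamily genes, 15 were tested, and 6 were higher in ciNPC than in MEF and 1 was lower, beside 12.7% of all genes tested in each direction. Celsr1, a planar polarity cadherin, was not detected on MEF (-4.24) and read 0.30, 0.26 and 0.46 on the ciNPC arrays and 0.63 on NPC. Dchs1, the ligand of Fat4, read 0.68 on MEF, 2.51, 3.01 and 3.02 on ciNPC and 3.50 on NPC (log2 difference from MEF 2.17, adjusted p = 0.000548, limma). Celsr2 (3.03), Fat3 (fitted 3.66), Clstn2 (2.44) and Cdhr1 (fitted 2.62) were the others, and Cdhr2 (-1.85) was the lower one. Against NPC 0 of the 15 passed in limma, with 0 higher and 2 lower at an unadjusted p under 0.05.

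Of 12 genes that serve promoter choice in the protocadherin clusters or cleave the proteins, 6 were higher in ciNPC than in MEF, beside the same 12.7%: Ctcf (1.70), the cohesin subunits Rad21 (1.47) and Smc3 (1.08), Smchd1 (1.23) and the DNA methyltransferases Dnmt3a (2.10) and Dnmt3b (1.22). Psen2, a subunit of gamma-secretase, was lower (-1.92). Ctcf read 1.33 on MEF, 2.99 to 3.10 on ciNPC and 3.34 on NPC, without overlap between MEF and the rest. Of 9 signalling partners of protocadherins, Ptk2 (1.43), Fyn (1.62), Wasf1 (2.43) and Abi2 (2.14) were higher and 0 were lower. The share of all genes was 12.7% each way. Wasf1, which drives branched actin assembly, read 0.43 on MEF, 2.74, 2.98 and 2.85 on ciNPC and 3.42 on NPC. Against NPC 0 of either list passed in limma; at an unadjusted p under 0.05, 2 of the 12 were lower, and of the 9 signalling partners 1 was higher and 4 were lower.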
